A study of Mus musculus with 12 samples.

Results

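Collagens are the main structural proteins of the extracellular matrix, and 39 collagen genes were followed along the mouse cochlea from the apex to the base. They were taken by name, as every gene on the array whose symbol is Col, a number, the letter a and a number, and they were 39 of the 19505 named genes measured. Col6a3, Col6a5, Col20a1, Col21a1 and Col22a1, other known collagen genes, were not among them and were not analysed here. The 39 genes carried 942 probes of 60 bases each, from 2 probes for Col8a1 and Col8a2 to 62 for Col7a1. In every turn, each of the 39 had at least 1 probe that all 4 arrays placed well above background.

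A collagen chain is a long run of triplets that start with glycine, and such chains wind together into a triple helix. Fibrillar collagens (types I, II, III, V, XI, XXIV and XXVII) assemble into rope-like fibrils, network collagens (IV, VIII and X) into sheets, and FACIT collagens (such as IX, XII and XIV) sit on the surface of fibrils, while the transmembrane types (XIII, XVII, XXIII and XXV) stay anchored in the cell that makes them. In the cochlea, types II, IX and XI are known from the tectorial membrane and from the fibrous and cartilaginous matrix around the duct, and type IV from the basement membranes of vessels, nerves and epithelia. Inherited defects of several of these chains impair hearing.

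The arrays were hybridized with RNA from the apical, middle and basal turns of cochleae dissected from male C57BL/6 mice aged 6 weeks, an untreated wild-type strain, with 4 arrays for each turn. Each turn held the organ of Corti together with the lateral wall (stria vascularis, spiral ligament and spiral prominence), so every value is an average over many cell types, and fewer cells of a type cannot be told apart from less RNA per cell. The study's methods add the spiral ganglion neurons to the dissected tissue. The labels give 4 mice, and the arrays of a turn were separate mouse samples. The turns thus share mice, so arrays of different turns are not independent. Which arrays share a mouse is not stated, and the turns were compared as unpaired. The same mass of RNA, 25 ng, was labeled for every array.

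The sequences of 8 collagen probes are shown first because they show what was measured: the repeat that defines a collagen, read at single places along the mRNA. Each lies in the coding sequence of a triple helix, at the mm9 position given, is written 5′ to 3′ on the strand of the gene, and has the glycine codons (GGN, at every ninth base) in capitals. The first 6 are, for each gene, the glycine-repeat probe with the lowest p between apex and base, and the last pair are glycine-repeat probes of Col2a1 and Col13a1 with the highest p.
Col23a1, probe 4 of 10, chr11:51378245-51378304, plus strand: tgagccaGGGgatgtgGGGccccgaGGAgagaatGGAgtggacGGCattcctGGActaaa
Col13a1, probe 11 of 12, chr10:61306331-61306390, minus strand: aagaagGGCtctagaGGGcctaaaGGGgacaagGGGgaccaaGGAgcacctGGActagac
Col2a1, probe 16 of 23, chr15:97810577-97810636, minus strand: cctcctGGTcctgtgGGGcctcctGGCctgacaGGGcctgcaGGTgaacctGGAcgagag
Col11a1, probe 18 of 26, chr3:113870447-113870506, plus strand: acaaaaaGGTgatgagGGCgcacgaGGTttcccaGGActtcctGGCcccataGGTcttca
Col9a3, probe 5 of 8, chr2:180350269-180350328, plus strand: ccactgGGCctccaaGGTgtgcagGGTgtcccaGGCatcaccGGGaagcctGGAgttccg
Col4a3, probe 4 of 38, chr1:82651532-82651591, plus strand: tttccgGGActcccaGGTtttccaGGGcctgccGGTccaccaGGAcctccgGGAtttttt
Col2a1, probe 7 of 23, chr15:97819193-97819252, minus strand: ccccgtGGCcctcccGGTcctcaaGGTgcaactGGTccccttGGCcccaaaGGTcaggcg
Col13a1, probe 7 of 12, chr10:61326689-61326748, minus strand: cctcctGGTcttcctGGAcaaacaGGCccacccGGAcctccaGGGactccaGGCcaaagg
Probes are numbered from the 5′ end of the gene. Each of the 8 holds 6 glycine codons. Over all 942 collagen probes, 369 (39.2%) held the repeat at least 6 times, and over all 165865 probes of the array 0.245% did. Repeat probes were richer in G and C (60.2% ± 5.93, SD, n = 369) than the other collagen probes (51.8% ± 8.44).

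Values are processed fluorescence signals in arbitrary units, scaled so that all arrays had the same 75th percentile. A gene's level on an array is the geometric mean of its probes, and the mean ± SD below is over the 4 arrays of a turn. Turns were compared on the log2 scale with limma over all 19505 genes, and a gene is said to have passed when its Benjamini-Hochberg adjusted p was under 0.05. All apex arrays shared 1 slide, all middle arrays another and all base arrays the remaining one, so slide and turn cannot be told apart. Before scaling, the 75th percentile was 534 to 722, and 77.4 to 81.4% of spots were well above background. The median SD of a collagen gene between arrays of a turn was 0.0939 to 0.116 on the log2 scale.

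Between apex and base, 22 of the 39 collagen genes passed, against 39.2% of all genes (45.6% of the 16511 genes with a probe well above background). Of the 22, 11 were higher in apex (17.6% of all genes) and 11 higher in base (21.6%). The genes higher in base were the chains of cartilage-type fibrils (Col2a1, Col11a1, Col11a2, Col27a1), all 3 chains of type IX, and Col3a1, Col4a3, Col4a4 and Col8a1. The genes higher in apex were the transmembrane collagens Col13a1, Col23a1 and Col25a1, both multiplexins (Col15a1 and Col18a1), Col4a1, Col4a2, Col4a5, Col5a1, Col14a1 and Col24a1. The arrays of apex and base did not overlap for 19 of the 39, against 38.3% of all genes. The median difference, apex minus base, was -0.01 for the collagen genes and -0.04 for all genes, and the median size was 0.27 and 0.19.

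**Figure D1:**
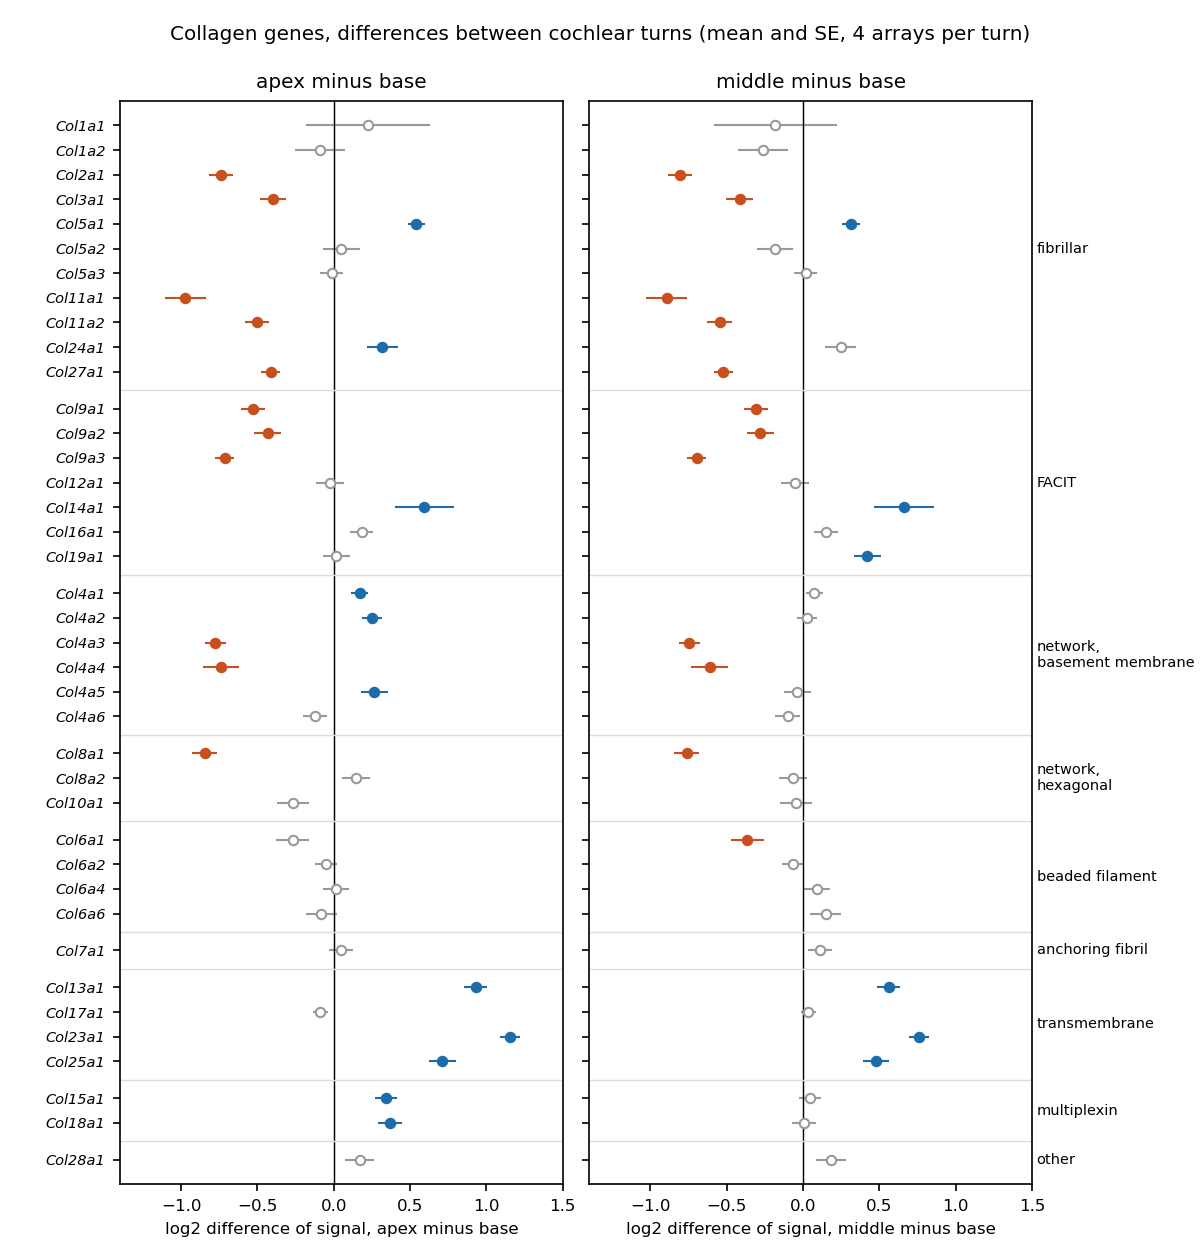
Log2 difference of each of the 39 collagen genes between apex and base (points, with standard errors as bars), grouped by collagen class, with genes that passed the test in colour. The type II, IX and XI chains lie left of 0 (higher in base) and the transmembrane chains XIII, XXIII and XXV right of 0 (higher in apex). Of the beaded filament (type VI) chains, Col6a2, Col6a4 and Col6a6 lie near 0 and Col6a1 at -0.27, which did not pass.

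Counts by class are to be read against all genes, of which 17.6% were higher in apex and 21.6% in base. Of the 11 fibrillar genes, 5 were higher in base, 2 higher in apex and 4 did not pass (median -0.09). Of the 9 network genes, 3 were higher in apex and 3 in base, and of the 7 FACIT genes, 3 were higher in base and 1 in apex. Of the other 12 genes, 5 were higher in apex and none in base (median 0.11), and these 5 were 3 of the 4 transmembrane collagens and both multiplexins. Class counts this small were not tested as classes.

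The genes for the chains of fibrils that carry type II collagen all had higher RNA signal in base. The fibrils themselves were not measured. Col2a1 makes the type II chain, the main fibrillar collagen of cartilage and of the tectorial membrane. Its signal was 473, 535, 486 and 565 in the apex arrays, 489, 505, 466 and 503 in the middle and 903, 799, 787 and 952 in the base. All base arrays were above all others, while apex and middle overlapped. Col2a1 was lower in apex than in base by 0.74 on the log2 scale (1.67-fold, SE 0.077, limma adjusted p = 3.83e-05), and lower in middle than in base by 0.81 (adjusted p = 8.89e-05).

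Col11a1 and Col11a2 make type XI chains, which copolymerize with type II and limit the width of the fibril. Col11a1 read 256.5, 282, 323 and 428 in apex, 326, 328, 354 and 329 in middle and 664, 557, 595 and 671 in base. The base arrays again stood above all others, and the apex arrays were the most spread, with array 4 highest. The difference from apex to base was -0.97 (1.96-fold, SE 0.13, adjusted p = 0.00023), and it passed 2-fold without apex array 4 (-1.12) or without base array 2 (-1.02). Col11a2 read 699, 810, 799 and 756 in apex, 648, 758, 761 and 809 in middle and 1080, 1017, 1040 and 1206 in base, a difference of -0.50 (1.42-fold, SE 0.081, adjusted p = 0.000638). Its apex and middle arrays overlapped and lay below every base array.

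Type IX is a FACIT that coats type II fibrils and is built from the products of Col9a1, Col9a2 and Col9a3. Col9a3 read 517, 586, 556 and 541 in apex, 514, 586, 553 and 575 in middle and 933, 903, 828 and 945 in base (-0.71, 1.64-fold, SE 0.063, adjusted p = 1.19e-05). Its apex and middle arrays overlapped, with means of 550 ± 28.9 and 557 ± 31.8. Col9a1 went up in 2 steps by its means, 87.4 ± 4.89 in apex, 102 ± 5.23 in middle and 126 ± 13.0 in base, with no overlap between neighbouring turns. Its apex arrays read 80.3, 88.2, 90.0 and 91.0, its middle arrays 105, 100, 95.3 and 106.9 and its base arrays 135, 120, 111 and 139. Of those steps, middle to base passed (-0.31, adjusted p = 0.0174) and apex to middle did not (-0.22, adjusted p = 0.0838), and the whole span was -0.53 (SE 0.077, adjusted p = 0.000335). Col9a2 read 882, 1011, 1026 and 1010 in apex, 963, 1160, 1098 and 1156 in middle and 1212, 1408, 1223 and 1471 in base (-0.43, SE 0.087, adjusted p = 0.00228). Here too the base arrays were above all others.

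Of the remaining fibrillar genes, Col27a1 and Col3a1, singled out after their values were seen, were also higher in base. Col27a1, a fibrillar collagen of developing cartilage, had means of 292 ± 14.6 in apex, 271 ± 17.5 in middle and 389 ± 19.9 in base (-0.41, adjusted p = 0.000393). Col3a1, which makes the fibrils of elastic connective tissue and vessel walls, had 112 ± 10.5, 110 ± 5.46 and 147 ± 14.0 (-0.40, adjusted p = 0.00379). Neither passed between apex and middle.

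Type I, the collagen of bone, tendon and most fibrous tissue, did not pass in any comparison. Col1a1 read 260, 478, 369 and 1328 in apex, 382, 441, 340 and 346 in middle and 387, 385, 629 and 347 in base. Apex array 4 was far above the other 11 arrays. The difference from apex to base was 0.23 (SE 0.41, adjusted p = 0.722), and -0.25 without that array (adjusted p = 0.471). Col1a2 read 1480, 1614, 1678 and 2549 in apex, 1609, 1445, 1675 and 1624 in middle and 1889, 1504, 2280 and 2024 in base (-0.09, SE 0.17, adjusted p = 0.731). On apex array 4 the summed signal of 10 bone markers (17463) was also above the other apex arrays (3295 to 5474) and the base arrays (9724 to 11612), and that of 4 osteoclast markers was 1172 against 459 to 568 in the other apex arrays. The part of bone tissue in the type I values was not tested.

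Type V chains build the core of type I fibrils. Col5a1 was higher in apex, with 132 ± 8.28, 113 ± 3.58 and 90.7 ± 5.07 from apex to base (0.54, SE 0.059, adjusted p = 4.98e-05), and its turns did not overlap. Its partners Col5a2 (0.05) and Col5a3 (-0.01) did not pass. Col24a1, a fibrillar collagen linked to developing bone, was higher in apex by 0.32 (adjusted p = 0.0274). That call was not firm: it held under 7 of 18 alternatives to the processing and none of 3 other scalings, and without apex array 2, 3 or 4 or base array 1 or 3 the adjusted p was 0.0507 to 0.0761.

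**Figure D2:**
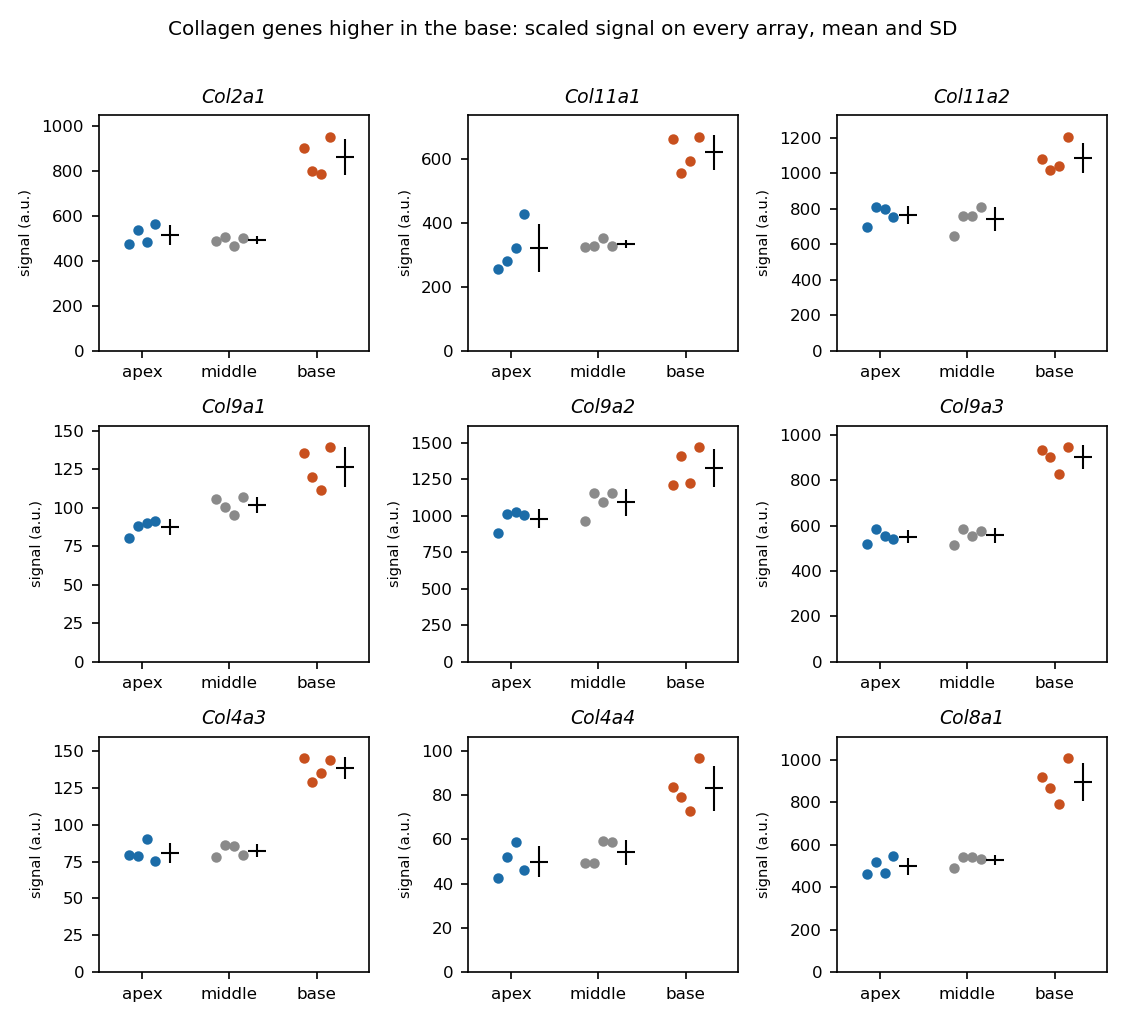
Scaled signal of collagen genes higher in base on each of the 12 arrays (points), by turn, with the mean and SD of the 4 arrays. In each panel shown the base arrays lie above the apex arrays.

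The type IV genes did not move as a class. They lie in 3 pairs, each transcribed in opposite directions from neighbouring starts: Col4a1 and Col4a2 on chromosome 8, Col4a3 and Col4a4 on chromosome 1, and Col4a5 and Col4a6 on chromosome X. Col4a1 and Col4a2 make the network found in nearly every basement membrane. Col4a1 read 147, 157, 170 and 156 in apex, 144, 144, 155 and 146 in middle and 143, 132, 144 and 141 in base (0.17, 1.12-fold, SE 0.055, adjusted p = 0.0308). All apex arrays were above all base arrays, but the difference was small. It held under 10 of 18 alternatives and none of 3 other scalings, and without apex array 2, 3 or 4 or base array 2 or 4 the adjusted p was 0.0535 to 0.0933. Col4a2 read 92.3, 96.0, 101 and 91.4 in apex, 77.1, 79.0, 88.0 and 81.5 in middle and 83.6, 72.1, 79.1 and 85.6 in base (0.25, 1.19-fold, SE 0.066, adjusted p = 0.0106). Its apex arrays stood above all middle and base arrays, whereas those of Col4a1 overlapped the middle arrays. The Col4a2 call held under 13 of 18 alternatives and none of 3 other scalings.

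The partner pair went the other way. Col4a3 and Col4a4, given in full after their values were seen, make chains of the specialized network of the kidney filter, the eye and the cochlea, whose loss causes Alport syndrome with deafness. Col4a3 read 79.1, 78.5, 90.2 and 75.4 in apex, 78.3, 86.1, 85.8 and 79.5 in middle and 145, 129, 135 and 144 in base (-0.77, 1.71-fold, SE 0.067, adjusted p = 1.08e-05). Col4a4 read 42.5, 51.9, 59.0 and 46.4 in apex, 49.4, 49.2, 59.3 and 58.9 in middle and 83.5, 79.3, 72.6 and 96.6 in base (-0.74, 1.67-fold, SE 0.12, adjusted p = 0.000606). For both, base stood above apex and middle without overlap. Col4a5, whose chain joins the products of Col4a3 and Col4a4 in that network and also pairs with that of Col4a6, was instead 77.5 ± 6.73 in apex and 64.6 ± 6.90 in base (0.27, adjusted p = 0.0367). It held under 11 of 18 alternatives and none of 3 other scalings, and it did not pass with the sample number as a block (adjusted p = 0.0719) or without apex array 1, 2 or 3 or base array 2 or 3 (0.0644 to 0.106). Col4a6 did not pass (-0.12, adjusted p = 0.264).

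Among the hexagonal networks, Col8a1, a short-chain collagen of vessel walls and of the corneal basement membrane, was singled out after its values were seen. It read 463, 518, 467 and 546 in apex, 492, 541, 541 and 534 in middle and 920, 865, 794 and 1008 in base (-0.85, 1.80-fold, SE 0.081, adjusted p = 2.05e-05). Both of its 2 probes passed alone. Its partner Col8a2 (0.15, adjusted p = 0.244) and Col10a1, the collagen of hypertrophic cartilage (-0.27, adjusted p = 0.0678, and 0.0469 with the block), did not pass.

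The transmembrane collagens held the largest differences in the apical direction. Col23a1 codes for a collagen anchored in the plasma membrane, from which its outer part can be shed, and it was the only one of the 39 genes to differ 2-fold or more (4.39% of all genes did, 3.27% higher in apex and 1.12% in base). It read 72.0, 70.3, 65.8 and 65.3 in apex, 50.01, 48.9, 57.5 and 52.5 in middle and 31.0, 28.2, 31.6 and 32.3 in base. The 3 turns did not overlap. The difference from apex to base was 1.15 (2.22-fold, SE 0.066, adjusted p = 6.94e-07), made up of 0.39 from apex to middle (adjusted p = 0.00553) and 0.76 from middle to base (adjusted p = 4.46e-05). All 10 of its probes were higher in apex and 8 of them passed, although only 3 of the 10 were well above background on all 12 arrays.

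Col13a1, named after its values were seen, makes a transmembrane collagen of cell-matrix and nerve-muscle junctions and showed the same order. It read 113, 109, 92.9 and 105 in apex, 77.4, 77.0, 79.1 and 91.5 in middle and 52.7, 53.1, 55.9 and 57.8 in base. No turn overlapped another, the difference from apex to base was 0.93 (1.91-fold, SE 0.075, adjusted p = 6.69e-06), and each step passed (0.37, adjusted p = 0.0129, and 0.56, adjusted p = 0.000693). Col25a1, a transmembrane collagen first found in neurons, had 186 ± 15.0, 158 ± 5.54 and 114 ± 14.0 (0.71, SE 0.088, adjusted p = 0.000119). Its turns did not overlap either, though apex to middle did not pass (0.23, adjusted p = 0.103). Col17a1, the transmembrane collagen that fixes epithelia to their basement membrane, did not pass (-0.09, adjusted p = 0.198).

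**Figure D3:**
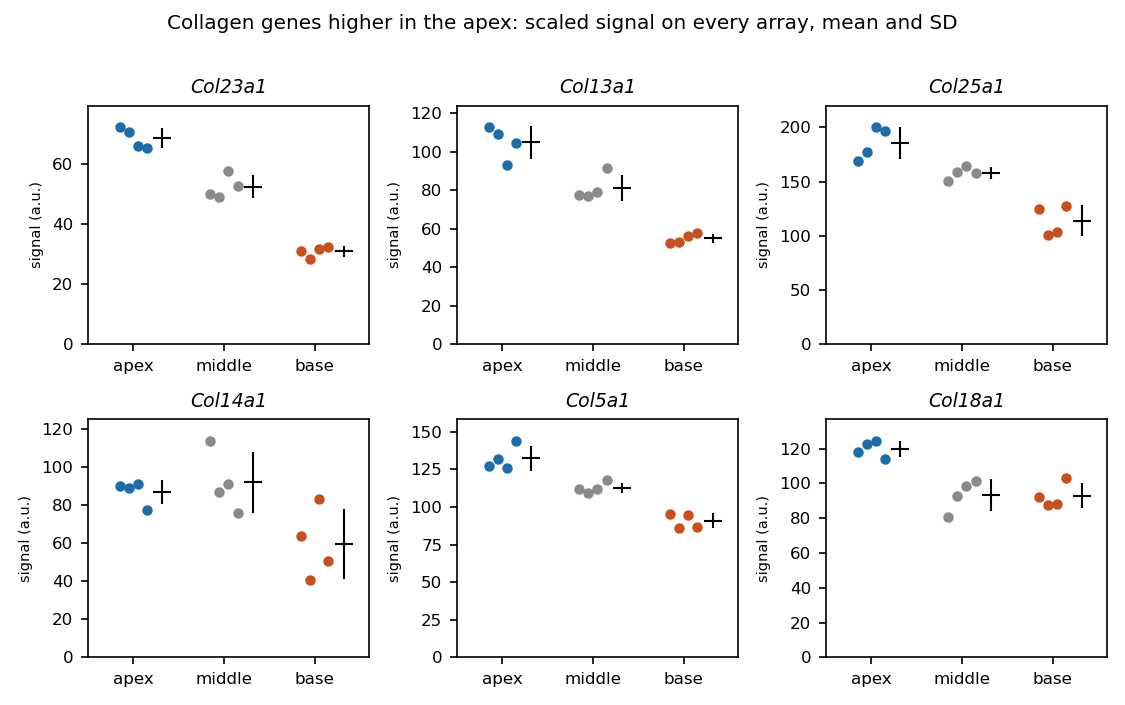
Scaled signal of collagen genes higher in apex on each of the 12 arrays (points), by turn, with the mean and SD of the 4 arrays. Col23a1, Col13a1, Col25a1 and Col5a1 step down from apex through middle to base with no overlap, and Col14a1 overlaps between the turns.

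The multiplexins Col15a1 and Col18a1 make basement membrane collagens whose ends release fragments of the endostatin kind. Col18a1 had 120 ± 4.79 in apex, 93.4 ± 9.34 in middle and 92.9 ± 7.16 in base (0.37, adjusted p = 0.00342), and Col15a1 had 84.8 ± 5.33, 68.9 ± 4.43 and 66.8 ± 5.38 (0.35, adjusted p = 0.00292). For both the step lay between apex and middle, which passed at 0.36 and 0.30, whereas middle and base differed by 0.01 and 0.05. The apex to middle call held under 15 of 18 alternatives and 2 of 3 other scalings for Col18a1. For Col15a1 it held under 11 of 18 and 1 of 3. Col14a1, a FACIT bound to fibrils of type I, had 86.8 ± 6.51, 91.8 ± 15.99 and 59.5 ± 18.3 (0.59, SE 0.19, adjusted p = 0.0309), with overlap between apex and base. That call between apex and base held under 13 of 18 alternatives and none of 3 other scalings. Without apex array 1, 2 or 3 or base array 2 or 4 the adjusted p of Col14a1 was 0.0661 to 0.0824.

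Type VI collagen makes beaded filaments around cells, and none of its 4 chains measured passed between apex and base in the unpaired comparison. Col6a1 read 38.8, 39.5, 44.6 and 55.0 in apex, 39.3, 40.0, 39.3 and 46.8 in middle and 50.8, 54.1, 49.3 and 58.7 in base. Only apex array 4 reached the base arrays. The difference was -0.27 (SE 0.11, adjusted p = 0.0762), and -0.38 without that array (adjusted p = 0.00725). With the sample number as a block Col6a1 did pass as higher in base (adjusted p = 0.0119), and without the block middle to base passed (-0.36, adjusted p = 0.0381). Col6a2, whose chain joins that of Col6a1, read 43.4, 49.8, 46.6 and 53.4 in apex, 46.8, 45.7, 51.2 and 47.2 in middle and 51.2, 51.9, 45.5 and 51.3 in base (-0.05), with all turns overlapping. Col6a4 (0.01) and Col6a6 (-0.08) differed little, but both were dim. Only 2 of 27 probes of Col6a4 and 4 of 29 of Col6a6 were well above background on all 12 arrays. The other genes that did not pass were Col7a1 of anchoring fibrils (0.05), Col12a1 (-0.02), Col16a1 (0.18, which passed with the block at an adjusted p of 0.0494), Col19a1 (0.02) and Col28a1 (0.17).

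Most differences of the middle turn were from the base. Between middle and base 18 of the 39 passed, against 20.9% of all genes, 12 of them higher in base (9.23% of all genes) and 6 higher in middle (11.6%). Those higher in base were Col2a1, Col3a1, Col4a3, Col4a4, Col6a1, Col8a1, Col9a1, Col9a2, Col9a3, Col11a1, Col11a2 and Col27a1. Those higher in middle were Col5a1, Col13a1, Col14a1, Col19a1, Col23a1 and Col25a1. Between apex and middle 7 of the 39 passed, against 12% of all genes. Of these, 6 were higher in apex (4.42% of all genes), namely Col4a2, Col5a1, Col13a1, Col15a1, Col18a1 and Col23a1. None of those 6 calls held under every alternative to the processing, and none under all 3 other scalings. The remaining one of the 7, Col19a1, a rare FACIT of basement membrane zones, was higher in middle (7.61% of all genes), with 14.2 in apex, 18.8 in middle and 14.0 in base, and only 2 of its 18 probes were well above background on all 12 arrays. No collagen gene differed 2-fold between apex and middle (0.436% of all genes did, 0.297% higher in apex and 0.138% in middle) or between middle and base (2.66% did, 2.2% higher in middle and 0.456% in base). The arrays did not overlap for 12 of the 39 between apex and middle (20.8% of all genes) and for 17 between middle and base (24.1%). These comparisons share arrays, the middle and base arrays each entering 2 of the 3, so their counts are not independent.

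Whether the apical genes passed depended on how the arrays were scaled. Scaling to the spike-in probes, in place of the 75th percentile, moved the median of all genes from -0.04 to -0.52 between apex and base, and scaling to the median of the probes moved it to -0.15. Quantile normalization moved it to -0.08. Each of these moves differences toward base, and all 11 genes higher in base passed under each. Of the 11 genes higher in apex, Col13a1 and Col23a1 passed under all 3. Col23a1 was 0.67 under spike-in scaling, 0.94 under quantile normalization and 1.04 under median scaling, and Col13a1 0.44, 0.76 and 0.81. Col5a1 (0.06), Col14a1 (0.11) and Col25a1 (0.22) stayed above 0 but did not pass under spike-in scaling. Col5a1 and Col25a1 passed under the 2 other scalings, and Col14a1 under none of the 3. Under spike-in scaling Col4a1, Col4a2, Col4a5, Col15a1, Col18a1 and Col24a1 fell below 0, at -0.12 to -0.32, still above the -0.52 of all genes. Over the 18 alternatives to the processing (16 for Col8a1), 9 of the 11 basal genes and 2 of the 11 apical genes passed in every one.

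The probes along each gene did not all give the same difference. At single probes, 308 of 942 passed between apex and base (32.7%, against 34.4% of all probes), 110 higher in apex (18% of all probes) and 198 in base (16.4%). Set against the mean of the other probes of its gene, 162 collagen probes differed (17.3%), against 10.4% of all probes. All 26 probes of Col11a1 were lower in apex and 24 passed, from -0.15 to -1.65. For Col2a1, 22 of 23 were lower in apex and 19 passed, yet 17 of 23 differed from the gene's other probes. In Col5a1, 11 probes passed as higher in apex and 4 as higher in base, from -0.69 to 2.61. Its gene value thus averages opposite directions. Probes also passed both ways in Col18a1 (10 higher in apex, 5 in base), Col15a1 (7 and 3), Col4a5 (9 and 2), Col4a1 (9 and 1) and Col13a1 (8 and 1). In Col4a2, Col14a1, Col23a1, Col24a1 and Col25a1 no probe passed as higher in base.

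The 8 printed sequences show the spread. The first Col2a1 probe was 323 ± 9.64 in apex and 541 ± 38.1 in base (-0.74, adjusted p over all probes = 2.4e-05), and the second, nearer the 5′ end of the same helix, was 2242 ± 214 and 2541 ± 115 (-0.18, adjusted p = 0.0938). In Col13a1 they were 298 ± 31.5 against 74.2 ± 8.28 (2.01, adjusted p = 1.99e-06) and 350 ± 59.3 against 354 ± 47.5 (-0.02, adjusted p = 0.919). The pair from each gene was picked for its lowest and highest p, so the contrast within a pair is a description of the range and not a test. The Col23a1 probe was 63.4 ± 17.6 against 18.9 ± 5.33 (1.75, adjusted p = 0.000302). The Col11a1 probe (-0.86, adjusted p = 0.00046), the Col9a3 probe (-0.98, adjusted p = 5.14e-05) and the Col4a3 probe (-0.69, adjusted p = 8.1e-05) were lower in apex.

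**Figure D4:**
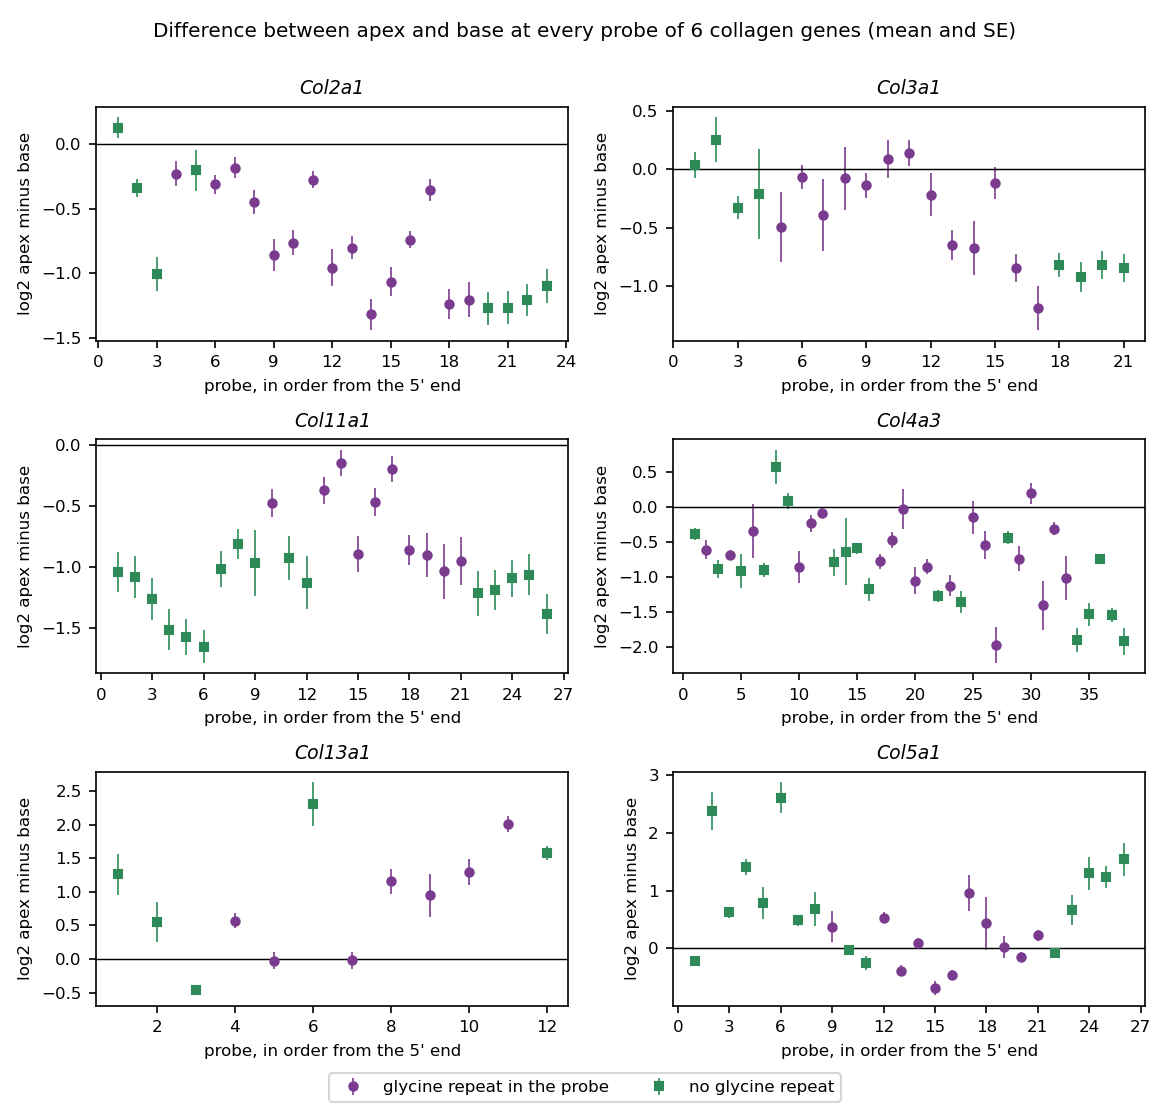
Log2 difference between apex and base at every probe of 6 collagen genes, in order from the 5′ end (points with standard errors), with glycine-repeat probes as circles and the others as squares. Col2a1 and Col3a1 run from near 0 at the 5′ end to about their most negative values at the 3′ end, Col11a1 is negative throughout, and Col5a1 is lowest in the middle of the gene.

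Position along the gene was then tested, a comparison chosen after the probe values were seen. For the 36 collagen genes with 4 or more probes, the 3′ part of the probes was set against the 5′ part (equal numbers of probes, an odd middle one left out), and 11 of the 36 differed between apex and base, against 22.1% of 13416 genes. In 8 of the 11 the 3′ part was relatively higher in base (19% of all genes) and in 3 relatively higher in apex (3.15%). Col2a1 had -0.41 in its 5′ part and -1.05 in its 3′ part (adjusted p of the difference = 0.00023). Col3a1 had -0.13 and -0.71 (adjusted p = 0.0015), Col4a3 -0.51 and -1.04 (adjusted p = 0.000236) and Col9a3 -0.41 and -1.01 (adjusted p = 0.00424). In these 4 the 5′ part showed the smaller difference, and both parts were lower in apex.

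The exceptions were Col4a4 (-0.87 and -0.60, adjusted p = 0.033), Col11a1 (-1.06 and -0.88, adjusted p = 0.0144) and Col13a1 (0.70 and 1.16, adjusted p = 0.00575), where the 3′ part was relatively higher in apex. Col23a1 gave the same value in both parts, 1.14 and 1.17. Col24a1 was 0.68 in its 5′ part and -0.04 in its 3′ part (adjusted p = 0.0106), so its apical difference lay in the 5′ part. Over all genes, the signal of the 3′ part stood above that of the 5′ part by a median of 0.72 to 0.80 on the log2 scale in the apex arrays, 0.80 to 0.82 in the middle and 0.82 to 0.86 in the base. This balance moved with the turn, and its part in the collagen values was not tested.

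**Figure D5:**
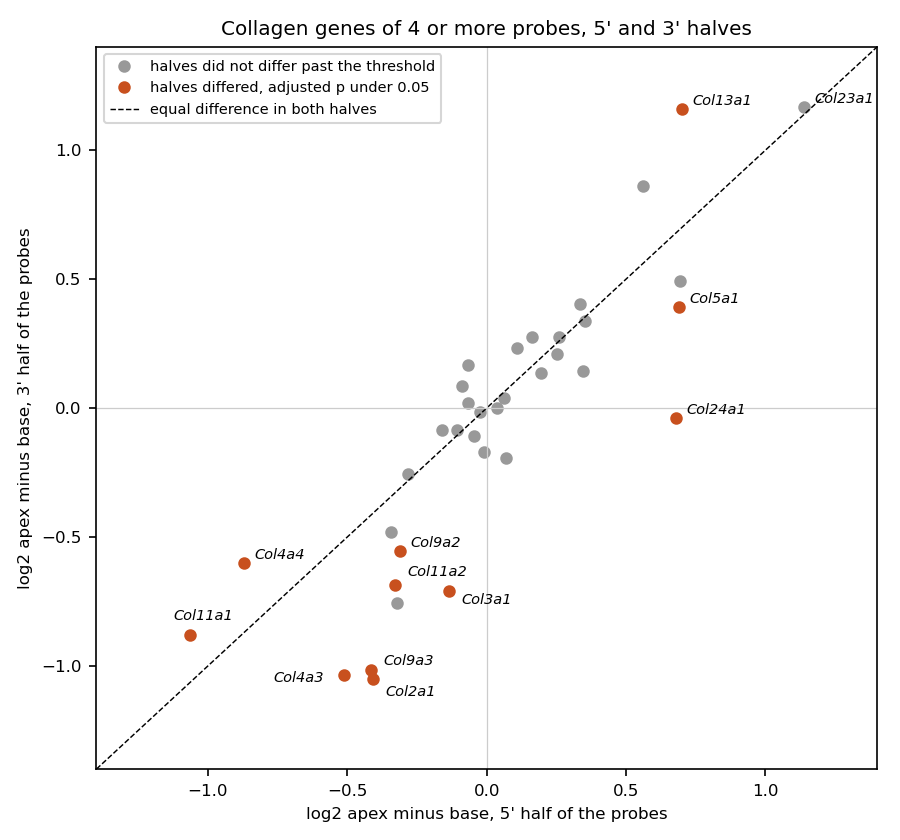
Log2 difference between apex and base in the 5′ part of each gene's probes (horizontal axis) against that in the 3′ part (vertical axis) for the 36 collagen genes with 4 or more probes. Points below the dashed line have a 3′ part relatively higher in base, as Col2a1, Col3a1, Col4a3 and Col9a3 do, and Col23a1 lies on the line.

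Probes on the glycine repeat gave smaller differences in most genes. Among 21 genes that passed and had 2 or more probes of each kind, the median size was smaller on the repeat probes in 15. Col11a1 had -0.67 on 10 repeat probes and -1.11 on 16 others, Col2a1 -0.76 on 15 and -1.05 on 8, and Col5a1 0.10 on 11 and 0.68 on 15. Col25a1 went the other way, with 1.02 on 4 repeat probes and 0.58 on 8 others. Without the repeat probes Col11a1 differed by -1.18. These medians were not tested, and the higher G and C content of repeat probes goes with them.

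Direction went with the brightness of a probe, in collagen genes and in all genes. Of the 168 collagen probes with a mean signal of 32 to 64, 38 passed as higher in apex and 18 as higher in base, where 22.8% and 5.38% of all probes did. Of the 80 brighter than 1024, 1 passed as higher in apex and 34 as higher in base. Over all probes that bright, 10.6% passed as higher in apex and 42.6% as higher in base. The part of brightness in the collagen differences was not tested.

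The enzymes that make and join collagen were listed beside the collagens. Of 22 genes for chain modification, folding and export, 10 were higher in base and 2 in apex (median -0.19), against 21.6% and 17.6% of all genes. Plod1, a lysyl hydroxylase, was 434 ± 25.4 in apex and 970 ± 78.0 in base (-1.16, adjusted p = 9.64e-07), and Leprel1, a prolyl 3-hydroxylase, 45.3 ± 4.83 and 115 ± 13.0 (-1.35, adjusted p = 1.11e-05). P4ha3, a subunit of prolyl 4-hydroxylase, went the other way with 112 ± 12.7 and 47.3 ± 12.4 (1.27, adjusted p = 0.000111). Those 3 were the genes of this list that differed 2-fold or more.

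Of 13 genes for propeptide cleavage and cross-linking, 7 were higher in base and 3 in apex (median -0.31), against the same 21.6% and 17.6%. Pcolce2, which enhances the cleavage of procollagen, was 245 ± 16.9 in apex and 1154 ± 154 in base (-2.23, adjusted p = 1.19e-07). Lox, the lysyl oxidase that cross-links fibrils, was 307 ± 36.4 and 755 ± 92.9 (-1.30, adjusted p = 6.71e-06). Among 9 collagen receptors 2 were higher in base and 1 in apex, a share of 33.3% against 39.2% of all genes, and among 4 collagen-degrading enzymes 1 was higher in apex. No receptor or degrading enzyme passed with a 2-fold difference, and the collagenase Mmp8, at 24.9 ± 22.3 in apex and 8.42 ± 1.62 in base (1.15), did not pass (adjusted p = 0.111).

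Markers of the cells that a turn can hold also moved, in lists to be read against 17.6% of all genes higher in apex and 21.6% higher in base. Of 10 chondrocyte markers 4 were higher in base and 3 in apex: the cartilage proteoglycan Acan (-2.65) and the matrix protein Chad (-2.02) were higher in base, and Hapln1 (1.84) and Matn1 (1.02), other cartilage matrix proteins, higher in apex. Their summed signal was 22205 to 22586 in apex, 16659 to 19749 in middle and 18643 to 23014 in base, but 80.8 to 90.6% of it in apex and base was Lect1 alone. Without Lect1 the sum was 2129 to 2178 in apex and 3130 to 3613 in base.

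Of 6 markers of spiral ligament fibrocytes 5 were higher in base, led by Otos (-1.28), and the remaining one, Otor, was higher in apex (0.60, adjusted p = 0.00874). Their summed signal was 277600 to 306830 in apex, 372170 to 416800 in middle and 527750 to 593470 in base, and without Otos, the brightest, 128530 to 152720 in apex and 183810 to 196060 in base. Of 7 markers of the tectorial membrane and supporting cells 4 were higher in apex, each 2-fold or more: Tectb (4.58), Epyc (1.78), Sox2 (1.67) and Otog (1.28). Otoa, whose product attaches the tectorial membrane, was higher in base (-0.56, adjusted p = 0.00248), and Tecta and Ceacam16 did not pass. The summed signal of the 7 was 53710 to 62991 in apex and 25917 to 36070 in base, and without Epyc 20045 to 22174 and 14271 to 24597, which overlap.

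Nerve and sensory cell markers were higher in apex. Of 8 neuron markers 6 were, each of them 2-fold or more, and Prph was higher in base (median of the list 1.42, summed signal 25443 to 33179 in apex, 22858 to 40601 in middle and 4890 to 21133 in base). Of 7 hair cell markers 6 were (median 1.33, summed 2881 to 3149 in apex and 2296 to 2473 in base). All 6 Schwann cell markers were higher in apex (summed 13049 to 14712 against 6489 to 12462 in base).

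Markers of the stria vascularis and of macrophages were mostly higher in base. Of 8 markers of the stria vascularis 7 were higher in base and none in apex (median -0.59, summed 39593 to 46533 in apex and 58947 to 79822 in base), and of 8 macrophage markers 6 were and none in apex (median -0.36, summed 2177 to 2773 and 3062 to 3878). Vessel markers were mixed. Of 8 endothelial markers 4 were higher in base and 2 in apex, 1 of them, Emcn, 2-fold or more (1.07). Their summed signal was higher in apex (5102 to 6723 against 3936 to 4647), and without Emcn, the brightest, higher in base (1844 to 1950 against 2012 to 2446). Of 6 mural cell markers 3 were higher in base and 1 in apex.

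Of 8 general fibroblast markers 4 were higher in apex, with Thy1 (1.31) and Pdgfra (1.11) 2-fold or more, and 1, Dcn, in base, also 2-fold or more (-1.42). Of 10 bone markers 1, Runx2, was higher in apex (0.34) and 1, Dmp1, in base, the latter 2-fold or more (-1.09, adjusted p = 0.000193). Of 8 skeletal muscle markers none were higher in apex and 3 in base. The 4 osteoclast markers did not pass. In every list, no marker measured was without a probe well above background. The part of these cells in the collagen differences was not tested.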

How the data were processed

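Spot intensities were deposited as the authors extracted them from 1-colour scans with Agilent Feature Extraction 10.7.3.1. The processed intensity, per the file headers, is net of a fitted background surface and detrended within the array, with no normalization between arrays. The deposited mean and surrounding intensities and the software's flags (other values) were used only for alternatives and filters, and the deposited table of values equals the processed signal on all 12 arrays. Probe positions and sequences are those of the array files, on mm9 (NCBI build 37). Exon numbers and protein sequences were not used here.

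Control spots (7914 of 180880) and flagged spots were left out, and with them 1 of 943 collagen probes. Signals were scaled to the 75th percentile (brought to 641, the median over arrays), log2 transformed and averaged over repeated spots and then over the probes of a gene, as the study averaged exon probes. Turns were compared with limma 3.58.1 in R 4.3.3 (moderated contrasts over all 12 arrays, Benjamini-Hochberg over 19505 genes or 165865 probes), with files read by data.table (version 1.17.8). A 2-fold call needed the moderated F test over the 3 turns and 2-fold between turn means. The same model, applied to the difference of the 3′ and 5′ parts of the probes, gave the test along the gene. The fits were tested on simulated data. A repeat probe holds GGN at one phase of 9 bases at least 6 times. The study's methods used a one-way ANOVA in GeneSpring, and an unmoderated F test was among the alternatives. No depth exists for arrays, and their number, 4 for each turn, limits the precision. Collagen members, classes, pathway lists and markers were chosen with earlier results of these data known. Genes given with every array were to be those that differed 2-fold and the chains of types I, II, IV (Col4a1 and Col4a2), VI, IX and XI, and of the other lists the genes that differed 2-fold, at most 5 for each list. Other genes given with values or shown in the figures were chosen later, and not all are marked so above. The unmarked ones include Col4a5, Col5a1, Col14a1, Col15a1, Col18a1, Col24a1 and Col25a1. They also include list genes under 2-fold, such as Otor, Otoa and Runx2.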

Additional observations from a re-analysis of the deposited data

Results flagged for a closer look

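In 9 of the 117 groups of 4 arrays (39 genes in 3 turns), 1 array stood far from the other 3 for its range. Chance alone gives about 1 such group in 20. Among the chains of types VI, IX and XI these were Col6a1 in middle array 4 (46.8, next 40.0), Col6a2 in base array 3 (45.5, next 51.2), Col9a2 in apex array 1 (882, next 1010) and Col11a1 in middle array 3 (354, next 329). The network genes were Col8a1 in middle array 1 (492, next 534) and Col8a2 in base array 4 (111, next 92.3). The others were Col13a1 in middle array 4 (91.5, next 79.1), Col14a1 in apex array 4 (77.1, next 89.0) and Col24a1 in apex array 1 (38.6, next 49.6). The type I chains, with their high value in apex array 4, were not among them.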

How the results depend on the processing

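Of the 11 genes higher in base than in apex, 9 passed under every alternative, and Col3a1 and Col9a1 did not pass with the median of the probes or with the 5′ part of the probes alone. The cause of the changes below was not tested. Scaling to the spike-in probes shifts all genes of an array by the same amount by construction, and here the shift was toward base. The 3′ part, the 5′ part, the probes without the glycine repeat and the probes well above background on all 12 arrays were alternatives chosen after seeing the data. Genes higher in apex than in base (11) numbered 5 with quantile normalization, 6 with scaling to the median, 2 with spike-in scaling, 4 with normexp on the mean signal and 5 with the mean of linear signals. Those higher in base (11) numbered 28 with spike-in scaling and 17 with linear signals. Genes changed 2-fold between apex and base (1) numbered 2 with scaling to the median (1 of them higher in base), 7 with spike-in scaling (none higher in apex, 7 in base), 0 with normexp, 0 with 16 added to each signal, 5 with the 3′ part (2 higher in apex, 3 in base), 2 with the 5′ part (1 in base) and 3 without repeat probes (2 in apex, 1 in base). With quantile normalization 0 of them were higher in apex and 1 in base. With normexp, 16 added or spike-in scaling, 0 were higher in apex.

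Genes that differed between apex and middle (7) numbered 4 with quantile normalization (3 higher in apex), 0 by limma with normexp (0 higher in apex, 0 in middle; 6 at an unadjusted p under 0.05, 3 each way), 2 with linear signals (2 in apex, 0 in middle) and 2 with the median of the probes (1 in apex). Those higher in apex (6) numbered 0 with spike-in scaling. Those higher in middle (1) numbered 3 with scaling to the median, 9 with spike-in scaling, 2 with the arrays of only the 2 turns, and 0 with the 5′ part, with probes well above background and with probes well above background on all 12 arrays. Between middle and base, genes higher in middle (6) numbered 2 with spike-in scaling and 3 with linear signals, genes higher in base (12) numbered 7 with the 5′ part, and 2-fold changes (0), all of them higher in base, numbered 4 with spike-in scaling, 1 with the 3′ part and 1 without repeat probes.

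Among genes that passed as reported or under the alternative, the sign turned for the following apex minus base values. With spike-in scaling they were Col4a1 -0.32, Col4a2 -0.24, Col4a5 -0.22, Col5a2 -0.44, Col6a4 -0.47, Col7a1 -0.44, Col8a2 -0.34, Col15a1 -0.14, Col16a1 -0.30, Col18a1 -0.12, Col19a1 -0.47, Col24a1 -0.17 and Col28a1 -0.32. With linear signals they were Col5a1 -0.038, Col7a1 -0.16, Col15a1 -0.040, Col16a1 -0.30, Col18a1 -0.072 and Col28a1 -0.28. Col24a1 was -0.040 with the 3′ part, and Col28a1 -0.16 with probes well above background on all 12 arrays. Among such genes middle minus base turned for Col5a1 (-0.040 with linear signals, -0.030 with the median of the probes), Col28a1 (-0.29 with linear signals), Col9a1 (0.031 with the median of the probes, 0.041 with the 5′ part) and Col19a1 (-0.020 with probes well above background). Where a gene passed neither way, the sign also turned under at least 1 alternative for 10 genes of the apex and base comparison (such as Col1a1, -0.26 with spike-in scaling), 19 of the apex and middle one and 15 of the middle and base one.

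Leaving out each array in turn gave 18 to 22 genes between apex and base, 7 to 11 higher in apex (7 without apex array 2 or 3) and 11 to 12 higher in base, with 1 to 2 changed 2-fold, 1 of them higher in apex and 0 to 1 in base. It gave 4 to 9 genes between apex and middle (4 without apex array 2 or middle array 2), 3 to 7 higher in apex and 1 to 2 in middle, 15 to 19 between middle and base (5 to 7 higher in middle, 10 to 12 in base), and 267 to 324 collagen probes. Between apex and base Col4a1 did not pass without apex array 2, 3 or 4 or base array 2 or 4 (0.13 to 0.17), Col4a5 without apex array 1, 2 or 3 or base array 2 or 3 (0.20 to 0.27), and Col24a1 without apex array 2, 3 or 4 or base array 1 or 3 (0.25 to 0.32), and Col10a1 passed without base array 3 (-0.35). Of the other comparisons, Col4a2, Col5a1, Col15a1 and Col18a1 between apex and middle, and Col6a1, Col9a2 and Col14a1 between middle and base, did not pass without at least 1 array.

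The sample number was shared across turns, and the labels do not say whether it marks a mouse. Arrays of the same number had a mean correlation of 0.09 (from -0.04 to 0.23, in 12 pairs, 6 of them over 0.1). Arrays of different numbers had a mean correlation of -0.03 (from -0.26 to 0.25, in 36 pairs, 2 of them over 0.1). The highest value of all pairs, 0.25, was between middle array 1 and base array 3, which differ in number. In 8 of 12 arrays the best match was an array of the same number. The number was also the position on the slide on all 12, so a shared mouse and a shared position cannot be told apart. It was used only as an alternative. With the number as a replicate block, 24 genes passed between apex and base (11 higher in apex, 13 in base), 1 of them 2-fold, 7 between apex and middle (6 and 1) and 18 between middle and base (6 and 12). Under that block Col4a5 did not pass (adjusted p = 0.0719), and Col6a1 (0.0119), Col10a1 (0.0469) and Col16a1 (0.0494) did.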
